A study of Mus musculus with 18 samples.

Results

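The 8 genes described here carry activating signals in natural killer (NK) cells: the receptors Ncr1 and Fcgr3, the signalling adaptors Fcer1g, Tyrobp, Hcst and Cd247, and the kinases Syk and Zap70. They were chosen by name as activating receptors, adaptors and proximal kinases. The rule holds no measured value, but earlier results of these data were known when the genes were chosen. They are 8 of the 41388 genes in the files, and all 8 had enough counts to be among the 14156 genes tested.

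Ncr1 encodes NKp46, a receptor of NK cells and other innate lymphoid cells, and Fcgr3 encodes an Fc receptor for IgG (CD16) through which NK cells recognise antibody-coated targets. Both receptors lack signalling motifs of their own and pair with small membrane adaptors. Fcer1g (the Fc receptor gamma chain), Cd247 (CD3 zeta) and Tyrobp (DAP12) carry immunoreceptor tyrosine-based activation motifs (ITAMs), which dock Syk or Zap70 once phosphorylated, whereas Hcst (DAP10) carries a motif that recruits phosphoinositide 3-kinase and Grb2.

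The study sequenced RNA of sorted splenic NK cells, with spleens pooled, from C57BL/6 mice aged 8 to 12 weeks in 3 experiments. The KO mice carried Ncr1-iCreERT2 (KI/WT), which places an inducible Cre in 1 copy of Ncr1, with a Rosa26YFP-LSL reporter and Eomes fl/fl, and were given tamoxifen for 3 days. The WT mice have no further genotype in the labels, and whether they received tamoxifen is unclear. Cells of each genotype were gated along NK cell maturation as CD27+ CD11b- (called stage II), CD27+ CD11b+ (called stage III) and CD27- CD11b+ (called stage IV), with 3 libraries in each of the 6 groups. Cre is driven from the Ncr1 gene, so the insertion in Ncr1 and the deletion of Eomes are carried by the same mice and cannot be told apart in a comparison of KO with WT. The number of mice in a pool is not given, and how replicate numbers map to experiments is not stated, so p-values measure the spread between these libraries.

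Levels are given as CPM, counts scaled to the size of each library by the trimmed mean of M-values (TMM), and tests are edgeR's quasi-likelihood test with p adjusted over all genes tested (called where it is under 0.05). Total counts ran from 18684350 to 28365837 per library, and the errors given cover the spread between libraries. Eomes, the deleted gene, was lower in KO by log2 -1.70 ± 0.15 in stage II, -0.69 ± 0.15 in stage III and -1.28 ± 0.15 in stage IV (SE, n = 3 per genotype; edgeR adjusted p = 1.15e-05, 0.0143 and 2.74e-04). KO stage III replicates 1 and 3 stood apart, with counts for 14824 and 16536 genes against 21454 in replicate 2. Stage III effect sizes without them, which leaves 1 KO library in that stage, are also given for some genes. These are the members other than Ncr1 and Cd247, and the list genes called in stage III. WT stage II replicate 1 (29859 genes) and KO stage IV replicate 3 (27912 genes) had more genes with a count than the other 16 libraries, and each was left out in turn with the rest. ILC1 markers summed to 1266 CPM in that WT library, against 656 and 674 CPM in the other WT libraries of stage II. WT replicate 1 stood apart from WT replicates 2 and 3 in every stage in Ncr1 and at the Rosa26 locus, as shown with Ncr1, and the comparison of KO with WT is also given without it. WT replicates 2 and 3 had Xist, which female cells express, at 0.636 CPM or less in every stage, whereas WT replicate 1 and all KO libraries had 5.66 to 45.2 CPM. Ddx3y, a gene of the Y chromosome, was at 67.8 to 214 CPM over all 18 libraries, those with Xist included. Xist therefore does not divide the libraries into female and male. The summed level of 8 NK cell markers was between 13321 and 43755 CPM, and none of them was at 0 in any library. In bulk RNA, fewer cells of a type and less RNA per cell cannot be told apart.

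Promoter sequences are shown for the 4 members that were lower in KO over the mean of the 3 stages, since Eomes is a T-box factor. RefSeq windows on GRCm38.p6 were found for 7 of the 8 members, and each sequence below holds the 250 bases before the start site, on the strand of the gene. Capitals mark TGTGGT or its reverse ACCACA, the core read by RUNX factors, in Ncr1, and GGTGT or its reverse ACACC, the core read by T-box factors, in the other genes.
Ncr1, chr7:4337474-4337723, plus strand: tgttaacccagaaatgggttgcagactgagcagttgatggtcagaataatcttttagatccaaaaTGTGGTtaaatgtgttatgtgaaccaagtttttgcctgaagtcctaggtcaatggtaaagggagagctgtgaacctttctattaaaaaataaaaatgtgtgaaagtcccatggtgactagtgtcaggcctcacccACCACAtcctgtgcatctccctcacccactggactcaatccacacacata
Cd247, chr1:165788431-165788680, plus strand: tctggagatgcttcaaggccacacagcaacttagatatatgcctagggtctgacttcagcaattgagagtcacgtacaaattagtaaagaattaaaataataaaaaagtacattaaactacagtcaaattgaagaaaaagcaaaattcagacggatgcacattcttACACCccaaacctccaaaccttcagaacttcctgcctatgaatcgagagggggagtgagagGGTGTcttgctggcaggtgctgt
Syk, chr13:52583187-52583436, plus strand: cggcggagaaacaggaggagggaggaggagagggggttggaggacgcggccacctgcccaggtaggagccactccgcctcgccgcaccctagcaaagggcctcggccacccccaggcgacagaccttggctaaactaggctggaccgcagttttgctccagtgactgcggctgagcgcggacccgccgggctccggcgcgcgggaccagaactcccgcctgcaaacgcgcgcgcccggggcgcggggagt
Zap70, chr1:36761548-36761797, plus strand: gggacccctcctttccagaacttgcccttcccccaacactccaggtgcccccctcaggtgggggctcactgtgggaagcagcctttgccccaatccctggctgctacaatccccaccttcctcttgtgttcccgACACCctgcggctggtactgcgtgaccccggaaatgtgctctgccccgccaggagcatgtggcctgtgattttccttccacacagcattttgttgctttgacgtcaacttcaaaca

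The Ncr1 window held the RUNX core at bases -185 and -50, counted back from the start site. The Cd247 window held the T-box core at bases -84 and -23, and the Zap70 window held it at base -116. So did the window of Hcst, a member that was not called in KO, at bases -196 and -127. Neither the Syk window, whose RefSeq start lies inside the GENCODE gene, nor the Ncr1 window held the T-box core. Searched on both strands, GGTGT was in 6 of the 12 windows of the members (4 genes) and in 36.2% of all 32851 windows, and TGTGGT in 3 of 12 (2 genes) and 14.0%. These counts include windows of other start sites, so a member can hold a core outside the window described above. The longer T-box half-site GGTGTGA, which contains GGTGT, was in 3.33% of all windows and in 0 of the 12 windows of the 7 members, some of which have more than 1 start site. These matches are letters in a window and were not set against binding data.

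The members differed widely in level, as read from the authors' RPKM, which is scaled per length of gene. Tyrobp was the highest, at 4326 to 7753 RPKM over the 18 libraries, and ranked between 6 and 9 of the 14156 genes. Fcer1g followed at 2280 to 3701 RPKM, Ncr1 at 910 to 2647 RPKM and Hcst at 633 to 1170 RPKM. The order from Tyrobp to Fcer1g and from Ncr1 to Hcst held in 18 of 18 libraries, and Fcer1g was above Ncr1 in 16 of 18. Zap70 (45.8 to 108 RPKM), Fcgr3 (48.7 to 146 RPKM) and Cd247 (26.9 to 99.8 RPKM) had no fixed order: Fcgr3 was above Zap70 in 12 of 18 libraries and Cd247 above Zap70 in 11. Syk was the lowest member in 18 of 18 libraries, at 9.17 to 20.7 RPKM. Lengths in the files ran from 437 bases in Hcst to 9362 bases in Syk, so the RPKM of Syk and of Cd247 (5329 bases) rests on long transcripts.

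**Figure D1:**
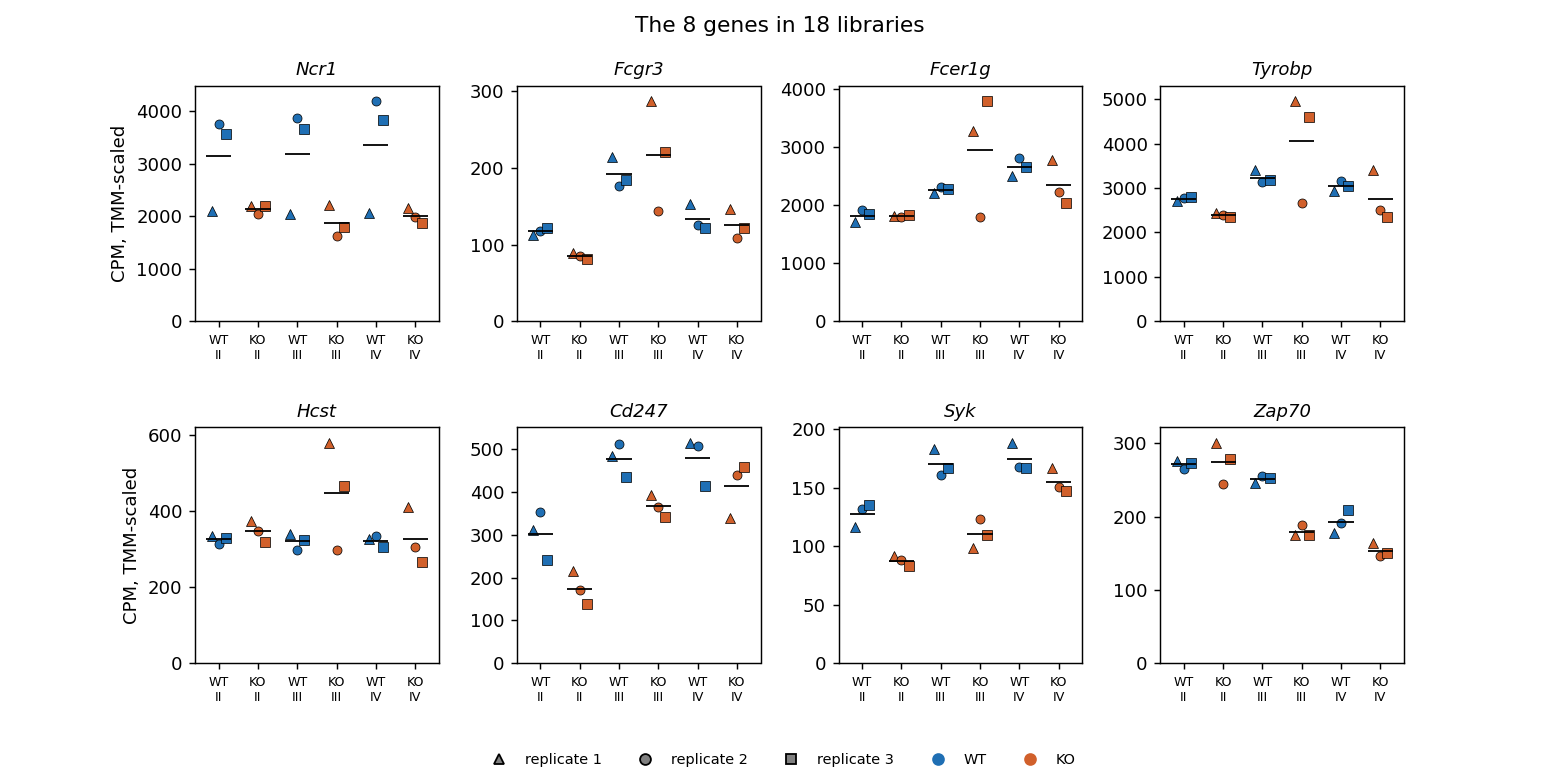
Each panel plots 1 gene, with CPM after TMM scaling on the vertical axis and the 6 groups on the horizontal axis; points are libraries, shaped by replicate number, and lines are group means of 3. Ncr1 in WT replicate 1 sits at the KO level in each stage, and KO stage III replicates 1 and 3 (triangle and square) lie above replicate 2 in Fcer1g, Tyrobp, Hcst and Fcgr3.

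Deletion of Eomes was compared with WT within each stage and over the mean of the 3 stages. In stage II, Cd247 and Syk were lower in KO and the other 6 members did not pass the test. In stage III, Syk and Zap70 were lower, and in stage IV none of the 8 passed. Over the mean of the 3 stages 4 members were lower, Ncr1, Cd247, Syk and Zap70, and none was higher. Of these 4 calls, Syk remained when the 3 stages were summed for each replicate number. The median log2 fold change of the 8 was -0.33 in stage II, -0.10 in stage III, -0.18 in stage IV and -0.19 over the mean, beside -0.01, 0.02, 0.02 and 0.01 for all genes tested.

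Of all 14156 genes, 1.46% were called in stage II, 7.9% in stage III, 0.509% in stage IV and 5.45% over the mean of the stages. The members' counts to set beside these shares are 2 of 8, 2 of 8, 0 of 8 and 4 of 8, from genes chosen with earlier results known. In stage IV, 2 members had an unadjusted p under 0.05 in edgeR, DESeq2 and limma voom called none, and voom with sample quality weights called 1. All KO libraries lay below all WT libraries for Fcgr3, Tyrobp, Cd247 and Syk in stage II, for Cd247, Syk and Zap70 in stage III and for Zap70 in stage IV. Groups did not overlap, in either direction, for 19.5%, 20.5% and 13.5% of all genes in stages II, III and IV. Type 1 innate lymphoid cells (ILC1) also carry NKp46, and of 8 of their markers 5 rose in KO in stage II, 8 in stage III and 2 in stage IV, and none fell. They summed to 656 to 1266 CPM in WT and 1612 to 1956 CPM in KO in stage II, to 48.4 to 61.0 and 146 to 272 CPM in stage III, and to 24.3 to 28.9 and 50.2 to 67.8 CPM in stage IV, and none was at 0 in any library. Single markers could overlap, as Cxcr6 did in stage II (111 to 408 CPM in WT and 253 to 389 in KO). The 8 NK cell markers summed to 17312 to 18282 CPM in WT and 13321 to 13717 in KO in stage II, to 26282 to 30905 and 21054 to 32870 in stage III, and to 36965 to 40539 and 38130 to 43755 in stage IV. Of these 8, 2 were called lower and 0 higher in KO in stage II. Gzma was there at 3454 to 3635 CPM in WT and 790 to 958 in KO. Klrb1c (2159 to 2516 and 2231 to 2412 CPM) and Klrk1 (2753 to 3075 and 2619 to 2813 CPM) overlapped. The 10 B cell markers summed to 1417 to 1636 CPM in WT and 1875 to 2037 in KO in stage II, to 699.6 to 768 and 891 to 1169 in stage III, and, with KO below WT, to 236 to 347 and 164 to 220 in stage IV. The part of these markers in the members' differences was not tested.

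**Figure D2:**
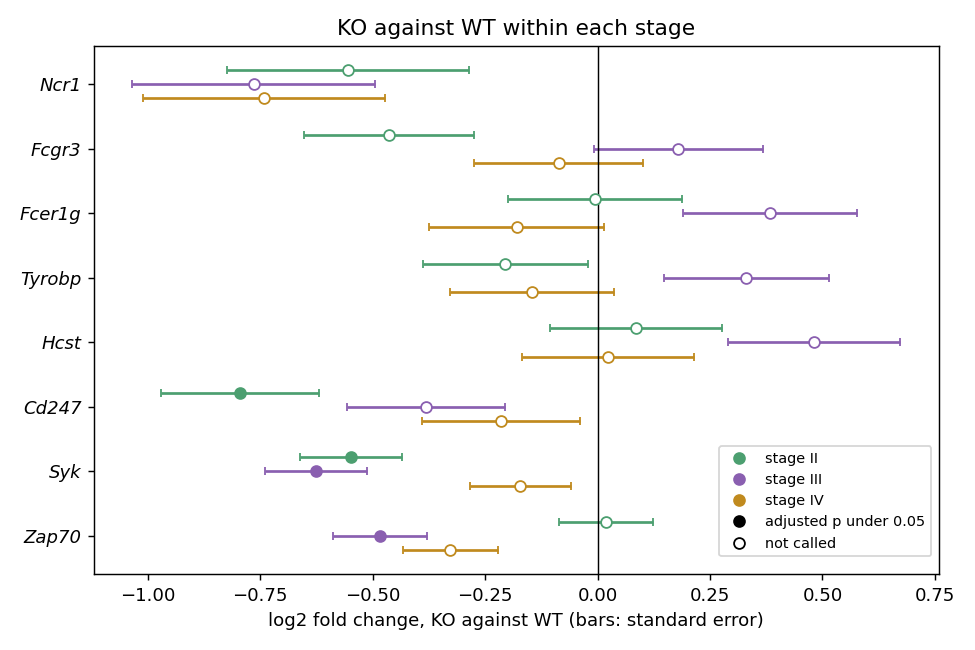
The horizontal axis gives the log2 fold change of KO against WT from edgeR with its standard error, the vertical axis the 8 genes, and colour the stage; filled points passed an adjusted p under 0.05. Cd247 and Syk in stage II and Syk and Zap70 in stage III are filled, and Ncr1 has the widest bars.

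Ncr1 (ENSMUSG00000062524) lies on chromosome 7 from 4337724 to 4345164 on the plus strand (GENCODE on GRCm38, as for the other members). In stage II its level was 2102, 3749 and 3574 CPM in WT replicates 1, 2 and 3 and 2191, 2036 and 2191 CPM in KO. In stage III it was 2043, 3878 and 3658 CPM in WT and 2216, 1631 and 1791 CPM in KO, and in stage IV 2061, 4189 and 3840 CPM in WT and 2159, 1996 and 1878 CPM in KO. WT replicate 1 of every stage was thus at the level of the KO libraries, and the groups overlapped in all 3 stages. WT replicate 1 had 0.574, 0.542 and 0.513 times the mean of WT replicates 2 and 3 in stages II, III and IV. The mean of KO was 1.02, 0.92 and 0.976 times WT replicate 1, and 0.584, 0.499 and 0.501 times the mean of WT replicates 2 and 3. The log2 fold change of KO against WT was -0.55 ± 0.27 in stage II, -0.76 ± 0.27 in stage III and -0.74 ± 0.27 in stage IV (SE, n = 3 per genotype; adjusted p = 0.587, 0.0803 and 0.57). Over the mean of the stages it was -0.69 ± 0.16 (adjusted p = 0.0132).

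The gene whose level followed Ncr1 most closely over the 18 libraries was Gt(ROSA)26Sor (Pearson r = 0.96, across all genes tested), a transcript of the locus that holds the reporter in KO mice. It lies on chromosome 6 from 113067428 to 113077333 (GRCm38; ENSMUSG00000086429). It was at 20.2 to 38.1 CPM in the 6 libraries of WT replicates 2 and 3 and at 2.14 to 3.07 CPM in the other 12, WT replicate 1 included. The stage II libraries held 56, 423 and 535 reads of it for WT replicates 1, 2 and 3, and 71, 61 and 50 for KO. WT replicate 1 had 0.115, 0.0806 and 0.072 times the mean of WT replicates 2 and 3 in stages II, III and IV, and the mean of KO was 0.934, 1.20 and 1.12 times WT replicate 1. Eomes did not follow this split, since WT replicate 1 had 0.813, 1.04 and 0.937 times the mean of WT replicates 2 and 3. Of the other 7 members, none had a ratio of WT replicate 1 to that mean outside 0.872 to 1.23. Xist divided the 18 libraries in the same way, at 0.636 CPM or less in WT replicates 2 and 3 and 5.66 CPM or more in the others, and its part in the Ncr1 values was not tested. The labels do not state whether the mice of WT replicate 1 carried an inserted allele, and this was not tested.

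**Figure D3:**
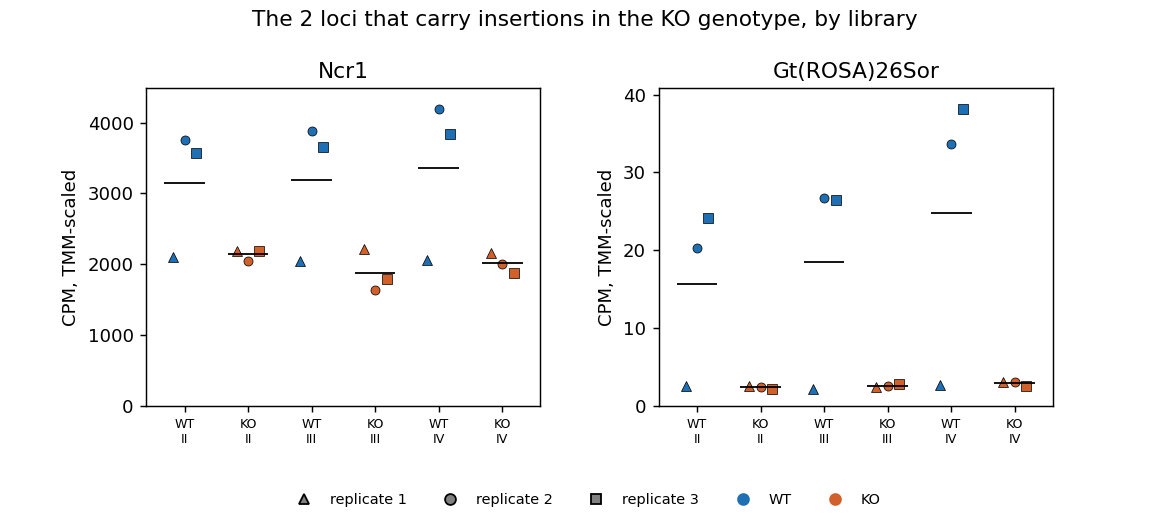
Levels of Ncr1 (left) and Gt(ROSA)26Sor (right) in CPM after TMM scaling, by group and library, with group means of 3 as lines. In both genes the 6 libraries of WT replicates 2 and 3 (circles and squares in blue) stand above the other 12 libraries, with no overlap: 3574 to 4189 against 1631 to 2216 CPM for Ncr1 and 20.2 to 38.1 against 2.14 to 3.07 CPM for Gt(ROSA)26Sor.

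The comparison of KO with WT was also made without WT replicate 1 of each stage, an alternative chosen after seeing Ncr1 and Xist in those libraries. Ncr1 was then at log2 -0.79 in stage II, -1.01 in stage III, -1.0 in stage IV and -0.93 over the mean of the stages. Since its level was among the reasons to leave those libraries out, these values describe the remaining libraries and no test of Ncr1 is given. Syk kept its calls in stage II (-0.62, edgeR adjusted p = 0.0236), in stage III (-0.58, adjusted p = 0.0337) and over the mean. The call of Cd247 in stage II ended (-0.79, adjusted p = 0.135), as did that of Zap70 in stage III (-0.51, adjusted p = 0.0628). In this fit 1.42%, 1.68% and 0.516% of all genes were called in stages II, III and IV and 3.98% over the mean. All WT libraries left in it had Xist at 0.636 CPM or less, and all KO libraries had 5.66 CPM or more. Genotype and Xist level therefore cannot be told apart in these values, those of Syk included.

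Fcgr3 (ENSMUSG00000059498) lies on the minus strand of chromosome 1 from 171051174 to 171064935. In stage II its level was 112, 118 and 121 CPM in WT and 89.6, 84.8 and 80.9 CPM in KO, with no overlap. Its log2 fold change there was -0.46 ± 0.19 (adjusted p = 0.429), which did not pass edgeR's test. In stage III it was 214, 176 and 185 CPM in WT and 287, 144 and 221 CPM in KO, and the KO libraries lay on both sides of WT. The stage III log2 fold change was 0.18 ± 0.19, and -0.43 with KO stage III replicates 1 and 3 left out. In stage IV WT (122 to 153 CPM) and KO (109 to 147 CPM) overlapped, at -0.09 ± 0.19. Fcgr3 shares a cluster on chromosome 1 with other Fc receptor genes of similar sequence, and the sources used here do not say how reads that match several genes were counted.

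Fcer1g (ENSMUSG00000058715), the adaptor that Ncr1 and Fcgr3 share, lies on the minus strand of chromosome 1 from 171229572 to 171234365. It was at 1701, 1912 and 1841 CPM in WT stage II and at 1815, 1786 and 1832 CPM in KO. The groups overlapped, and the log2 fold change of -0.01 ± 0.19 was smaller than its error. In stage III the WT libraries were at 2200, 2300 and 2280 CPM, with the KO libraries at 3264, 1793 and 3782 CPM. The KO libraries lay on both sides of WT, and the difference of 0.38 ± 0.19 (adjusted p = 0.198) turned to -0.34 with KO stage III replicates 1 and 3 left out. In stage IV the difference was -0.18 ± 0.19, with WT at 2504 to 2799 CPM and KO at 2032 to 2765 CPM.

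Tyrobp (ENSMUSG00000030579) and Hcst (ENSMUSG00000064109) are neighbours on chromosome 7, on opposite strands with 126 bases between their 3′ ends (30413760 to 30417585, plus, and 30417712 to 30419854, minus). Tyrobp in stage II was at 2707, 2778 and 2801 CPM in WT and 2445, 2395 and 2347 CPM in KO. These groups did not overlap, but the log2 fold change of -0.21 ± 0.18 did not pass the test (adjusted p = 0.918). Hcst in stage II was at 335, 314 and 329 CPM in WT and 374, 346 and 319 CPM in KO, with a log2 fold change of 0.09 ± 0.19. In stage III the KO libraries of Tyrobp were at 4953, 2652 and 4599 CPM and those of Hcst at 579, 297 and 466 CPM. Replicates 1 and 3 were above all WT libraries of that stage (3131 to 3403 CPM for Tyrobp and 298 to 339 CPM for Hcst), and replicate 2 was below them. Without these 2 libraries the stage III log2 fold change of Tyrobp turned from 0.33 ± 0.18 to -0.30 and that of Hcst from 0.48 ± 0.19 to -0.12. Myeloid cells also express Fcer1g and Tyrobp, and their 14 markers summed to 398 to 458 CPM in WT stage III. In KO stage III they summed to 335, 661 and 384 CPM in replicates 1, 2 and 3, with 2 to 9 of the 14 at 0. Itgax made up most of these sums, at 367 to 423 CPM in WT stage III and 305 to 544 CPM in KO stage III. The part of the myeloid markers in the KO spread was not tested. In stage IV the log2 fold changes of Tyrobp and Hcst were -0.15 ± 0.18 and 0.02 ± 0.19.

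The ratio of Hcst to Tyrobp within a library by RPKM was 0.146 to 0.160 in WT and 0.175 to 0.197 in KO in stage II, with no overlap. In stage III it was 0.123 to 0.132 in WT and 0.131 to 0.151 in KO, and in stage IV 0.129 to 0.143 in WT and 0.146 to 0.156 in KO. The mean was higher in KO in each stage, and the libraries of stages II and IV did not overlap. No test was run on these ratios, which do not depend on how libraries are scaled. The share of all gene pairs whose ratio is apart was not computed. Single genes were apart for 19.5% of all genes in stage II and 13.5% in stage IV. Among other ratios taken, Cd247 to Fcer1g was apart in stage II only, and Cd247 to Tyrobp overlapped in each stage.

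Cd247 (ENSMUSG00000005763) lies on the plus strand of chromosome 1 from 165788681 to 165877277. In stage II it was at 311, 354 and 241 CPM in WT and 215, 170 and 137 CPM in KO. All KO libraries were below all WT libraries, and the log2 fold change was -0.79 ± 0.18 (1.74-fold lower; adjusted p = 0.0274). In stage III the values were 486, 513 and 435 CPM in WT and 394, 366 and 341 CPM in KO, again with no overlap. The log2 fold change of -0.38 ± 0.18 there did not pass the test (adjusted p = 0.161). In stage IV the groups overlapped, at 516, 508 and 415 CPM in WT and 340, 441 and 458 CPM in KO, with -0.21 ± 0.18. The mean over the stages was -0.46 ± 0.10 (adjusted p = 0.0104), and without WT replicate 1 it was -0.44 with an adjusted p of 0.0715. Exons of Cd247 overlap those of antisense genes over up to 2136 bases, and the sources used here do not state the strand setting of the counting. The antisense gene with that overlap had at most 305 counts in a library, where Cd247 had 3147 to 14257. Gm16565, on the same strand as Cd247, shares up to 206 bases with its exons and had at most 699 counts. These counts do not show how many reads over shared bases were left out of Cd247.

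Syk (ENSMUSG00000021457), on the plus strand of chromosome 13 from 52583173 to 52648792, was the only member called as lower in KO in both stage II and stage III. In stage II it was at 116, 132 and 135 CPM in WT and 91.6, 87.9 and 82.7 CPM in KO. In stage III it was at 183, 161 and 167 CPM in WT and 98.4, 123 and 110 CPM in KO. Neither pair of groups overlapped, and the log2 fold changes were -0.55 ± 0.11 in stage II (1.46-fold lower; adjusted p = 0.0166) and -0.63 ± 0.11 in stage III (1.54-fold lower; adjusted p = 0.00493). In stage IV WT was at 188, 168 and 166 CPM and KO at 167, 150 and 147 CPM, so the groups overlapped by 1 library each. The stage IV difference of -0.17 ± 0.11 did not pass the test. Set beside each other by replicate number, which only names the libraries, KO was below WT in 9 of 9 pairs for Syk, 8 of 9 for Cd247, 7 of 9 for Zap70 and Fcgr3, and 4 to 6 of 9 for the other members. The share of all genes with such counts was not computed, and the 9 pairs are not independent if stages share a pool. Averaged over the stages Syk was at -0.45 ± 0.07 (adjusted p = 3.68e-04), and this call held under each alternative tried.

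Zap70 (ENSMUSG00000026117), the kinase of the same family, lies on the plus strand of chromosome 1 from 36761798 to 36782818. In stage II it was at 276, 264 and 274 CPM in WT and 301, 244 and 279 CPM in KO, with a log2 fold change of 0.02 ± 0.10. In stage III it was at 245, 255 and 252 CPM in WT and 175, 188 and 175 CPM in KO. The KO libraries of stage III were all below WT, at -0.48 ± 0.10 (1.4-fold lower; adjusted p = 0.0152). In stage IV the values were 178, 191 and 209 CPM in WT and 164, 146 and 150 CPM in KO, also with no overlap, but -0.33 ± 0.10 did not pass (adjusted p = 0.371). Over the mean of the stages it was -0.26 ± 0.06 (adjusted p = 0.0143). Without KO stage III replicates 1 and 3, which leaves 1 KO library, the stage III values were -0.48 for Syk and -0.42 for Zap70.

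Libraries of different stages that share a genotype and a replicate number were more alike than others: their deviations from the group means correlated with a median r of 0.22, against -0.12 for other numbers of the same genotype. The labels do not say whether such libraries came from the same pool, in which case the mean over the stages would rest on 3 pools a genotype and its p-values, and those of the stage comparisons, would be too small. With the counts of the 3 stages summed for each genotype and number, an alternative chosen after seeing the data, edgeR called Syk (-0.46, adjusted p = 0.0483) and no longer Ncr1 (-0.70, 0.271), Cd247 (-0.45, 0.143) or Zap70 (-0.22, 0.461), where 1.57% of all genes were called.

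The calls within a stage were near the threshold. In stage II, leaving out 1 library at a time left 0 to 2 members called, and the call of Syk ended without WT stage II replicate 2 (-0.49, adjusted p = 0.225) or 3 (-0.48, 0.222), or without KO stage II replicate 1 (-0.57, 0.0692), 2 (-0.53, 0.148) or 3 (-0.49, 0.239). That of Cd247 ended without WT stage II replicate 1 (-0.78, 0.0773) or 2 (-0.62, 0.283), or without KO stage II replicate 2 (-0.76, 0.159) or 3 (-0.63, 0.277). Both calls also ended without any 1 library of WT stage III, or without WT stage IV replicate 1 or 2, and that of Syk without WT stage IV replicate 3, at adjusted p from 0.0539 to 0.0678. In stage III the number called was 0 without KO stage III replicate 1 and 5 without KO stage III replicate 2, when Fcer1g (0.64), Tyrobp (0.56) and Hcst (0.70) passed as higher. The stage III call of Syk ended without KO stage III replicate 1 (-0.54, 0.052), and that of Zap70 ended without the same library (-0.45, 0.0631) and without each WT library of stage III (replicate 1, -0.51, 0.0594; replicate 2, -0.48, 0.0984; replicate 3, -0.49, 0.0892). With the libraries of stage III alone in the fit, 0 members were called. Other settings added calls: Ncr1 passed in stage III with DESeq2 (adjusted p = 0.0304), with total counts only (0.0482) and with no filter (0.0022), and in stage IV with no filter (0.0127), and Fcgr3 passed in stage II with voom quality weights (0.0078) and with only the compared groups fitted (0.0236). Over the mean of the stages the calls of Ncr1, Cd247 and Syk held without any 1 library, and that of Zap70 ended in 6 of 18 cases, at adjusted p up to 0.0604 (without KO stage II replicate 2).

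The 3 stages were compared within each genotype to show how the members move with maturation. Between the ends of maturation, stage IV against stage II, Cd247 and Syk rose and Zap70 fell in WT, and the same 3 genes were called in KO with the same signs. In WT the log2 differences were 0.67 ± 0.18 for Cd247, 0.45 ± 0.11 for Syk and -0.49 ± 0.10 for Zap70 (adjusted p = 0.0156, 0.0118 and 0.00361). In KO they were 1.25 ± 0.18, 0.82 ± 0.11 and -0.84 ± 0.11 (adjusted p = 7.78e-05, 5.45e-05 and 2.06e-05). Of all genes, 15.1% were called in WT and 14.9% in KO, against 3 of 8 members in each. Fcer1g in WT (0.55 ± 0.19, adjusted p = 0.0703) and Fcgr3 in KO (0.56 ± 0.19, adjusted p = 0.0559) were next and did not pass, and Ncr1 was at 0.10 ± 0.27 in WT and -0.09 ± 0.27 in KO. The 3 WT calls ended without WT replicate 1 (0.63, 0.33 and -0.43 for Cd247, Syk and Zap70; adjusted p = 0.152, 0.215 and 0.088), and also without WT stage IV replicate 1 alone, whereas the 3 KO calls held under each alternative tried.

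The single steps in WT gave no calls. From stage II to III, Fcgr3 was at 0.71 ± 0.19, Cd247 at 0.66 ± 0.18 and Syk at 0.41 ± 0.11 (adjusted p = 0.0534, 0.0523 and 0.0594), and 2.97% of all genes were called. From stage III to IV, Zap70 was at -0.38 ± 0.10 and Fcgr3 at -0.52 ± 0.19 (adjusted p = 0.0602 and 0.2), and 3.17% of all genes were called. In edgeR 3 members in the first step and 2 in the second had an unadjusted p under 0.05. DESeq2 called 3 and 1, and limma voom 3 and 1. Without KO stage III replicates 1 and 3 in the fit, edgeR called 3 in the first step, Fcgr3, Cd247 and Syk, and 2 in the second. The 3 libraries of Fcgr3 in WT stage III (176 to 214 CPM) lay above those of stage II (112 to 121 CPM) and stage IV (122 to 153 CPM).

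The stage dependence of the KO effect was tested as an interaction. None of the 8 members passed for stage III against II, where 0.0494% of all genes were called, or for stage IV against II, where 0.212% were. At an unadjusted p under 0.05 edgeR gave 2 members for the first (Fcgr3 at 0.64 ± 0.27 and Zap70 at -0.50 ± 0.15) and 3 for the second (Cd247 at 0.58 ± 0.25, Syk at 0.38 ± 0.16 and Zap70 at -0.35 ± 0.15). DESeq2 called 1 member in the first and 0 in the second, and without KO stage III replicate 2 edgeR called 4 in the first. A member called in 1 stage and not in another is therefore not shown to differ between them.

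The balance of the 2 kinases shifted with maturation in both genotypes. The ratio of Syk to Zap70 within a library, by RPKM, had a mean of 0.151 in WT stage II, 0.217 in WT stage III and 0.291 in WT stage IV. In KO it was 0.102, 0.196 and 0.322. Within each genotype the libraries of the 3 stages did not overlap. Between genotypes the libraries were apart in stage II (0.135 to 0.159 in WT and 0.0947 to 0.115 in KO) and overlapped in stage III (0.202 to 0.238 and 0.180 to 0.208) and stage IV (0.255 to 0.338 and 0.313 to 0.328). No test was run on the ratios, and the share of all gene pairs with such gaps was not computed. T cells express Zap70 and Cd247, and T cell markers (12 genes) summed to 1025 to 1125 CPM in WT stage II, 538 to 574 in WT stage III and 330 to 414 in WT stage IV. In KO they summed to 948 to 1133, 569 to 678 and 299 to 361 CPM. Most of that sum was Trbc1 and Trbc2, while Cd4 and Cd8a were at 0.670 CPM or less in every library and at 0 in some. Cd3d was at 120 to 142 CPM in WT stage II and 3.33 to 4.66 CPM in WT stage IV. Cd3g was at 109 to 132 CPM and 3.04 to 3.64 CPM in these groups. In KO Cd3d went from 37.9 to 51.8 CPM in stage II to 3.54 to 6.14 CPM in stage IV. Cd3g in KO went from 76.1 to 115 CPM to 2.19 to 6.71 CPM. B cells express Syk, and the 10 B cell markers summed to 1417 to 2037 CPM in stage II and 164 to 347 CPM in stage IV over both genotypes. Ighm (943 to 1319 CPM in stage II and 145 to 316 in stage IV) and Cd74 (401 to 743 CPM in stage II) made up most of that sum. Cd22 was at 52.5 to 62.3 CPM in WT stage II and 38.0 to 51.7 CPM in KO stage II. Cd79b was at 10.4 to 14.1 and 23.2 to 30.7 CPM there, while Cd79a was at 2.05 CPM or less in every library. The part of the T and B cell markers in the shift of the ratio was not tested.

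**Figure D4:**
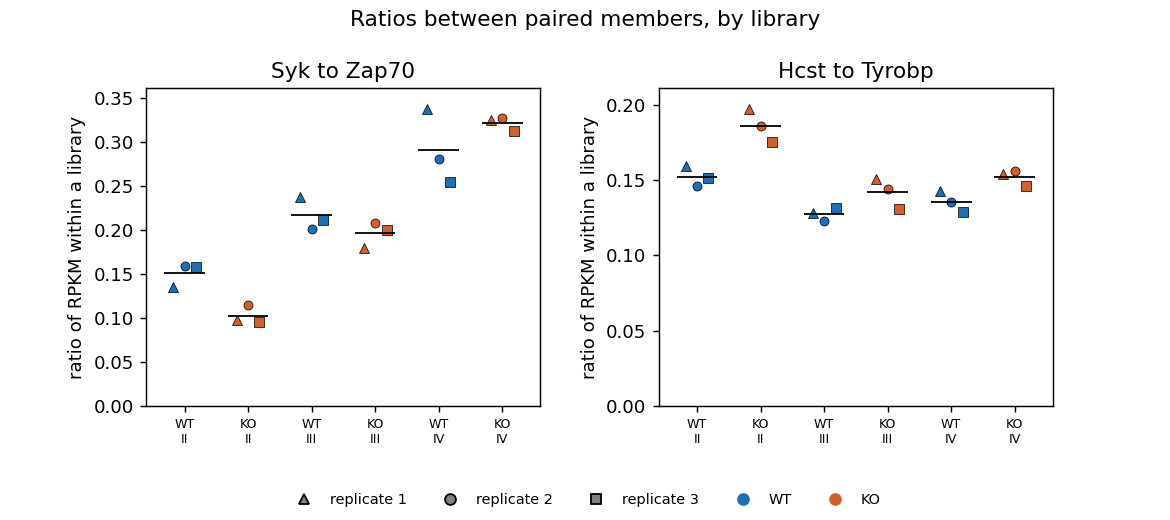
Ratio of RPKM within a library for Syk to Zap70 (left) and Hcst to Tyrobp (right), by group, with replicate number as the shape and the mean of 3 as a line. Syk to Zap70 goes from 0.102 in KO stage II to 0.322 in KO stage IV, and Hcst to Tyrobp is higher in KO than in WT in the mean of each stage.

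The rest of the pathway was read from lists of receptors that use these adaptors and of signalling genes up- and downstream of the kinases. Shares of all genes called, to set beside the list counts, were 1.46%, 7.9% and 0.509% in stages II, III and IV. Over the mean of the stages the share was 5.45%. Of the 8 partner receptors, 0 rose and 2 fell in KO in stage II: Klra4 (-1.24 ± 0.19, adjusted p = 0.00121) and Klra8 (-1.26 ± 0.18, adjusted p = 8.21e-04), which encode the activating receptors Ly49D and Ly49H that pair with Tyrobp. Genes of the Ly49 family are close copies, so their counts are uncertain where reads match several of them. None of the 8 was called in stage III or IV. Klrc2 joined them over the mean of the stages (-0.30 ± 0.08). Klrk1, which encodes NKG2D and pairs with Hcst, was at -0.12 ± 0.09, -0.02 ± 0.09 and -0.12 ± 0.09 in stages II, III and IV and passed in none. The median of the list was -0.29, -0.05 and -0.11.

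Among other Fc receptors, 3 of 7 had enough counts, and Fcgr2b, the inhibitory receptor for IgG, fell in stage II (-1.32 ± 0.21, adjusted p = 0.00201). It was at 373 to 556 counts in WT stage II and 165 to 310 in KO. In WT it rose with maturation, by 2.60 ± 0.21 from stage II to IV. Among 5 other ITAM chains, Cd3d fell (-1.54 ± 0.23) and Cd79b rose (1.16 ± 0.25) in stage II, and Cd79b (1.73 ± 0.26) and Cd3g (1.0 ± 0.27) rose in stage III. Cd3d, Cd3e and Cd3g were lower in WT stage IV than II by -4.95 ± 0.27, -4.56 ± 0.87 and -5.05 ± 0.32, the direction that Zap70 takes and the opposite of Cd247, which encodes the zeta chain of the same T cell complex. The KO effect on Cd3d differed between stages by the interaction test (2.27 ± 0.33 for stage III against II, adjusted p = 0.0143).

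Of 10 Src kinases and regulators with enough counts, Fyn fell in stage II (-0.78 ± 0.18, adjusted p = 0.0348) and Ptprc, the phosphatase CD45, in stage III (-0.80 ± 0.19, adjusted p = 0.0246). Fyn, Ptprc and Lck (-0.29 ± 0.07) were called over the mean of the stages. Of 27 downstream genes, Gab2 (-1.08 ± 0.25) and Lat2 (-0.55 ± 0.13) fell in stage II, and none was called in stage III or IV. Averaged over the stages, Lat2 (-0.35 ± 0.07) and Nck1 (-0.27 ± 0.07) were lower and Plcg2, the phospholipase that NK cell ITAM receptors use, was higher (0.41 ± 0.08, adjusted p = 0.00485). The adaptor Lat was at 0.23 ± 0.13, 0.28 ± 0.13 and -0.14 ± 0.13 in the 3 stages and passed in none.

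Of 13 negative regulators, 0 were called in stage II, 1 rose and 4 fell in stage III, and 1 rose in stage IV. The riser was Ptpn6 in both, the phosphatase SHP-1 that acts on these kinases for inhibitory receptors. It was at 0.39 ± 0.10 in stage II (adjusted p = 0.0759), 0.78 ± 0.10 in stage III (3.22e-04) and 0.91 ± 0.10 in stage IV (1.92e-04). Its counts in stage IV were 5502 to 7403 in WT and 9594 to 13558 in KO, with no overlap. The 4 that fell in stage III were the ubiquitin ligases Cbl (-1.10 ± 0.23) and Cblb (-0.74 ± 0.19) and, with the phosphatase gene Inpp5d (-0.54 ± 0.15), the adaptor Sla (-0.56 ± 0.16). Averaged over the stages, Ptpn6 was at 0.69 ± 0.06 (adjusted p = 9.61e-07), and Cbl (-0.59 ± 0.13), Cblb (-0.41 ± 0.11) and Dok2 (-0.36 ± 0.08) were lower. The median log2 fold change of the negative regulators in stages II, III and IV was -0.11, -0.36 and -0.04, beside -0.33, -0.10 and -0.18 for the 8 members.

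Without KO stage III replicates 1 and 3, all 8 list genes called in stage III kept their sign. These values rest on the 1 KO library left in that stage, so no calls are given. Ptpn6 was then at 0.79, Cd79b at 1.1, Cbl at -0.61, Cblb at -0.36, Ptprc at -0.33 and Cd3g at 0.49, while Inpp5d and Sla were at -0.22 and -0.20. The 15 genes called over the mean of the stages also kept their sign, with Klrc2 at -0.32.

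**Figure D5:**
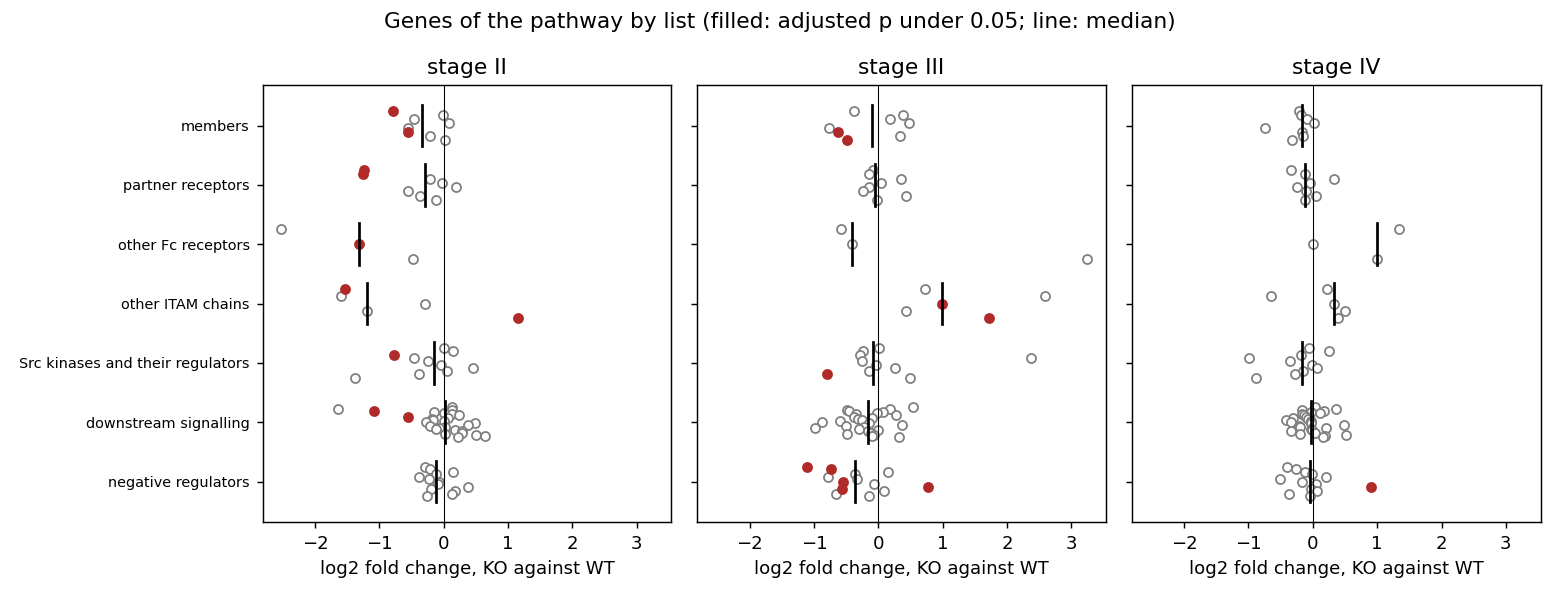
Each point is a gene, placed by its log2 fold change of KO against WT (horizontal axis) in the list it belongs to (vertical axis), with 1 panel per stage; filled points passed an adjusted p under 0.05 and black lines are medians. In stage II 8 genes outside the members are filled, and in stage IV Ptpn6 of the negative regulators is the only filled point.

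Over the 18 libraries the members fell into few close pairs. Log2 CPM correlated most between Fcgr3 and Tyrobp (Pearson r = 0.89), Fcer1g and Tyrobp (0.86), Cd247 and Syk (0.83) and Hcst and Tyrobp (0.79). Zap70 ran opposite to Fcer1g (-0.58) and Cd247 (-0.52), and Ncr1 had no r above 0.37 with another member. These are descriptions across libraries that share 6 groups, scaling and the 2 KO stage III libraries that stand apart. Among all genes tested, the gene most like Fcgr3 was Tmem171 (0.95), that most like Fcer1g was Tmbim4 (0.97), and that most like Tyrobp was Abracl (0.95). Plekhj1 was the most like Hcst (0.95), Klhl30 the most like Cd247 (0.94), Gm16329 the most like Syk (0.95) and Apol7e the most like Zap70 (0.95). Ubash3a, a suppressor of Syk family kinases on the list of negative regulators, was among the 3 genes most like Zap70 (0.93).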

How the data were processed

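RNA-seq of 18 libraries was used, 3 in each of 6 groups. The authors deposited for each library a count of reads per gene, with CPM and RPKM values, per the file headers. STAR 2.0.4, Subread and featureCounts 1.4.5 are named in the submitters' processing notes. For the genome build, the strand setting and reads with several matches: not given in the sources used here. Gene symbols were matched to the Ensembl identifiers (40254 of 41388).

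The test was the quasi-likelihood test of edgeR 4.0.16 (R 4.3.3) on these counts: filterByExpr by group (14156 genes kept), TMM scaling, 6 group means fitted to all libraries, with Benjamini-Hochberg adjustment over all genes tested and a threshold of 0.05. Each standard error was derived as absolute log2 change over the root of F. Levels are CPM on TMM-scaled libraries, correlations use log2 CPM with a prior count of 2, and comparisons between genes use the authors' RPKM. DESeq2 1.42.0 and limma 3.58.1 served as alternatives, beside other scalings and filters, and each library was left out in turn. The fit was tested on simulated data.

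Genes outside the members are named by rule: Eomes, Klrk1, Plcg2 and Lat always, up to 4 called genes with the largest absolute log2 fold change in each list and KO against WT contrast, and the 3 genes most correlated with each member. Inpp5d, Cd3e and the stage values of the other Cd3 chains and Fcgr2b were added after their values were seen. The members and lists were chosen with earlier results of these data known.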

Additional observations from a re-analysis of the deposited data

How the results depend on the processing

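Over alternatives that kept all or most libraries, 646 of 754 of the members' values kept their direction and side of the threshold, and 938 of 1044 did so with 1 library left out. The number of members called for KO against WT in stage II was 0 with scaling by total counts only, 1 with no filter and 0 to 2 with 1 library left out. In stage III it was 1 with voom quality weights, 0 with only the compared groups fitted, 1 without replicate 1 of both genotypes, and 0 to 5 with 1 library left out. In stage IV it was 1 with voom quality weights, with no filter, without WT replicate 1 and without replicate 1 of both genotypes, and 0 to 0 with 1 library left out. Over the mean of the stages leaving out 1 library gave 3 to 5, and summing the stages by genotype and number gave 1. The call of stage III without replicate 1 of both genotypes is that of Ncr1, and so are the calls of stage IV without replicate 1. The level of Ncr1 was a reason for leaving replicate 1 out, so these calls are no test of it. The settings without replicate 1 and the summed stages were chosen after seeing the data. The cause of these shifts was not tested.

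For WT stage III against II the count was 3 with DESeq2, 3 with voom, 4 with quality weights, 2 with no filter, 2 with a filter at 1 CPM in 3 libraries, 4 with only the compared groups, 3 without KO stage III replicates 1 and 3, and 0 to 3 with 1 library left out. For WT stage IV against III it was 1 with DESeq2, 1 with voom, 3 with quality weights, 1 with the CPM filter, 2 with only the compared groups, 2 without KO stage III replicates 1 and 3, and 0 to 2 with 1 library left out. For WT stage IV against II it was 0 without WT replicate 1, 1 without replicate 1 of both genotypes and 0 to 4 with 1 library left out. For KO stage IV against II it was 5 with quality weights, 5 without KO stage III replicates 1 and 3, and 3 to 5 with 1 library left out. The interaction of stage III against II gave 1 with DESeq2 and 0 to 4 with 1 library left out, and that of stage IV against II gave 0 to 0.

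Values that changed sign belonged to differences that were not called. For KO against WT these were Fcer1g in stage II (0.015 with no filter), Zap70 in stage II (-0.022 with quality weights, -0.040 without replicate 1 of both genotypes), and Fcgr3 in stage III (-0.0095 with total counts). Without KO stage III replicates 1 and 3, stage III gave -0.43 for Fcgr3, -0.34 for Fcer1g, -0.30 for Tyrobp and -0.12 for Hcst, and the mean of the stages -0.18 for Fcer1g and -0.0058 for Hcst. In stage IV Fcgr3 was 0.017 without WT replicate 1, and Hcst was -0.082 with quality weights, -0.0021 with no filter and -0.16 without replicate 1 of both genotypes. Over the mean Fcer1g was -0.043 without replicate 1 of both genotypes and Tyrobp 0.00069 with upper quartile scaling. For WT stage IV against II Hcst was 0.0019 with quality weights and 0.0066 with no filter.

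With 1 library left out, signs changed for KO against WT in Fcer1g (mean -0.018 to 0.15, stage II -0.053 to 0.067), Tyrobp (mean -0.068 to 0.070), Fcgr3 (stage III -0.064 to 0.40, stage IV -0.23 to 0.0053), Hcst (stage IV -0.18 to 0.15) and Zap70 (stage II -0.043 to 0.12). They also changed for stage IV against II in Hcst (KO -0.28 to 0.042, WT -0.023 to 0.046) and Ncr1 (WT -0.13 to 0.37).

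The replicate numbers were not treated as pairs, since stage-matched correlations between genotypes ran from -0.099 to 0.167 and 10 of 18 libraries were most like the library of their own number; within a genotype same-number correlations ran from -0.06 to 0.49. With the replicate number as a block, 2, 2, 0 and 4 members were called for KO against WT in stages II, III and IV and over the mean. The block gave 2 for WT stage III against II, 0 for stage IV against III, 3 for stage IV against II, 4 for KO stage IV against II and 0 for both interactions. A fit of only the compared groups was not run for the mean of the stages, which uses all groups.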
